A study of Mus musculus with 20 samples.

Results

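Carbonic anhydrases are zinc enzymes that interconvert carbon dioxide and water with bicarbonate and a proton. In the colon they are known above all from the absorptive colonocytes at the surface, where the bicarbonate and protons they supply are exchanged across the apical membrane for chloride and sodium, so that salt and water are taken up. Their expression was followed here in colon tissue of mice given azoxymethane (AOM, a colon carcinogen) and dextran sulfate sodium (DSS, which injures the colonic epithelium), with or without the traditional Chinese medicine Pien Tze Huang (PZH). The 7 members examined were Car1, Car2, Car3, Car4, Car8, Car12 and Car13, taken by gene symbol from the 32991 genes to which the deposited transcripts were assigned. Their level in a mouse was the sum over their annotated transcripts of FPKM, a measure of abundance corrected for transcript length and library depth.

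RNA was sequenced from the colon of 20 male C57BL/6 mice, with 1 library per mouse. These were 5 Control mice, 5 mice given only PZH, 5 given AOM/DSS (labelled Model) and 5 given both, here PZH + AOM/DSS (labelled Model + PZH). Mice of both AOM/DSS groups received 1 intraperitoneal injection of 12.5 mg/kg AOM, and from 7 days later 4 cycles of 2% DSS in the drinking water for 5 days followed by water for 2 weeks. Both PZH groups were gavaged with 250 mg/kg/d PZH for 91 days, and the Control and AOM/DSS groups with double distilled water. Whether tumours were separated from the tissue around them is not given in the sources used here. A lower level can come from fewer cells of a type or from less RNA per cell, which cannot be told apart in bulk tissue.

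The depth, read from the step size of low FPKM values, was about 15400000 to 19500000 fragments per mouse, with little difference between groups. The label of the tissue fitted its markers, although the extraction text in the labels names the abdominal aorta. The epithelial adhesion gene Cdh1 lay between 215 and 311 FPKM in the 20 mice, whereas no endothelial marker examined exceeded 10.6 FPKM. Epcam, another epithelial marker, was listed at 0 in 13 mice and at up to 865 FPKM in the others, and Krt8 was under 1 FPKM in 8 mice and at up to 3071 FPKM in another. A listing at 0 was therefore not read as absence. Fragments given to assembled transcripts without a gene name are missing from all gene sums. None of the 7 carbonic anhydrases was listed at 0 in any mouse. Control mice 17 and 50 stood apart by 308 and 260 FPKM of summed squamous epithelium genes, against 0.824 to 1.65 FPKM in the other Control mice. For the 7 members, results that rest on Control mice are given without these mice wherever the call changed. Calls of single other genes were not checked in this way.

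Car1, Car2, Car3 and Car13 encode cytosolic enzymes and lie together on mouse chromosome 3 within 259 kb (GRCm38). Along the chromosome these are Car13 (14641727 to 14663002, plus strand), Car1 (14766216 to 14808368, minus strand), Car3 (14863512 to 14872523, plus strand) and Car2 (14886273 to 14900770, plus strand). Car4 (chromosome 11, 84957786 to 84966044, plus strand) encodes an enzyme anchored to the outer face of the apical membrane by a lipid. Car12 (chromosome 9, 66713686 to 66766845, plus strand) encodes a transmembrane enzyme with its active site outside the cell, and Car8 (chromosome 4, 8143362 to 8239041, minus strand) encodes a protein without catalytic activity that binds an inositol trisphosphate receptor. 1 transcript carried 99.5% of the FPKM of Car1, 99.1% of Car2, 96.2% of Car4 and 89.6% of Car3. For Car12 the main transcript, Car12-201, carried 73.0%, and Car8 and Car13 had 1 annotated transcript each.

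The catalytic zinc is held by 3 histidines. Coding sequence around these sites is shown for the 3 abundant members, on which the main results turn. Each run is coding sequence of GENCODE M21 (GRCm38), 5′ to 3′, of 93 bases, and capitals mark the codons aligned with the 3 zinc-binding histidines of Car2.
Car2 (codons 91 to 121 of 260): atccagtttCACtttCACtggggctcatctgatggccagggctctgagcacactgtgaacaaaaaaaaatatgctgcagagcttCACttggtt
Car1 (codons 92 to 122 of 261): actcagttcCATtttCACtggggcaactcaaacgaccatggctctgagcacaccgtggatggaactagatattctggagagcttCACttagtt
Car4 (codons 111 to 141 of 305): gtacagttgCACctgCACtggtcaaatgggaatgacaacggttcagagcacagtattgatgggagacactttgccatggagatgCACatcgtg
All 3 capitalised codons encode histidine in Car1, Car2 and Car4, and also in Car3, Car12 and Car13. Over the aligned residues of the translated coding sequences, identity to Car2 was 58.3% for Car1, 56.9% for Car3, 56.5% for Car13, 37.5% for Car12 and 33.3% for Car4.

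In Control colon the 7 genes fell into abundant and scarce members. Car4 had the highest mean at 913 ± 293 FPKM (SD, n = 5), followed by Car1 at 793 ± 318 and Car2 at 662 ± 71.3, and the ranges of these 3 overlapped. Together they held 99.0% of the summed FPKM of the 7 members in Control mice and 97.0 to 98.9% in the other groups. Car13 (13.6 ± 3.64 FPKM) and Car3 (6.57 ± 4.95) were far lower, and Car12 (2.79 ± 0.809) and Car8 (1.38 ± 0.189) were lowest. The range of Car3 overlapped those of Car13, Car12 and Car8. The ranges of Car12 and Car8 did not overlap in Control mice (1.82 to 3.98 against 1.1 to 1.62 FPKM). The estimated fragments behind a value ranged over the 20 mice from 1280 to 22932 for Car1, 3810 to 25476 for Car2 and 2030 to 28233 for Car4. They ranged from 304 to 788 for Car13, 85.6 to 649 for Car12, 61.8 to 195 for Car8 and 2.99 to 607 for Car3, so that the lowest Car3 values rest on few fragments.

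**Figure D1:**
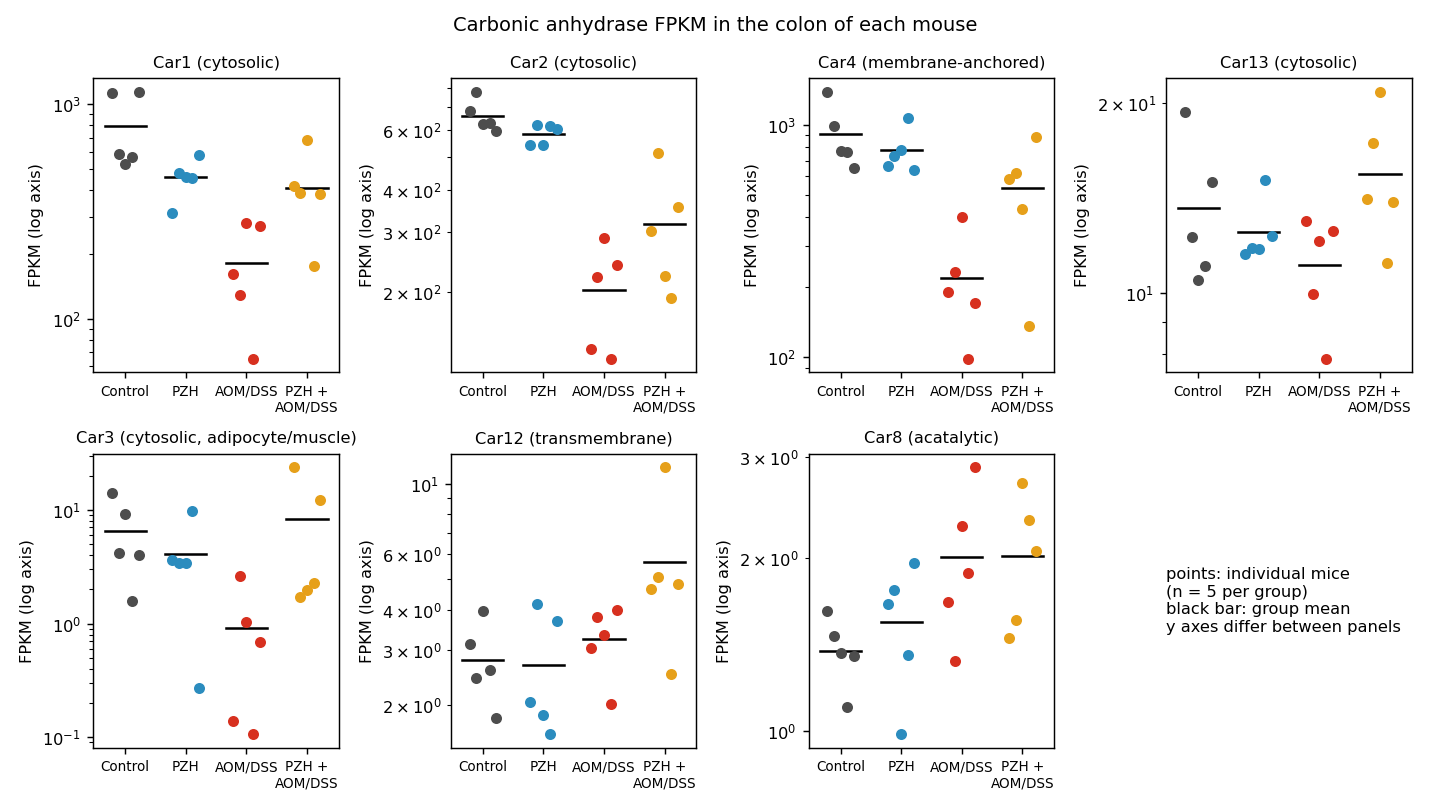
FPKM of the 7 carbonic anhydrases in the colon of each mouse (points, n = 5 per group, logarithmic y axes that differ between panels) with the group mean (black bar). For Car1, Car2 and Car4 every AOM/DSS mouse lies below every Control mouse, whereas for Car8, Car12 and Car13 the groups overlap.

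The comparison of AOM/DSS with Control mice asks what the colitis and tumour model did to these genes. The 3 abundant members and Car3 were lower in AOM/DSS mice, while Car8, Car12 and Car13 did not pass the test. Of the 7 members, 4 had a lower level at a Benjamini-Hochberg adjusted p under 0.05 by limma, fitted over all 15812 genes tested, and 0 a higher one. Among all genes tested, 7.23% were lower and 16.4% higher by the same rule. The median log2 change of the 7 members was -1.77, beside 0.09 for all genes tested. Summed over the 7 members, the Control mice reached 2393 ± 524 FPKM, while the AOM/DSS mice held 620.5 ± 253 FPKM, or 25.9% of that mean (SD, n = 5 each).

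Car4, the membrane-anchored enzyme, was at 1388, 993, 769, 761 and 655 FPKM in Control mice 17, 37, 41, 48 and 50. Mice 23, 30, 33, 44 and 52, given AOM/DSS, had 190.3, 233, 401, 98.3 and 171 FPKM. All AOM/DSS mice lay below all Control mice, which was also so for Car1 and Car2 and for 5.43% of all genes tested. The mean was 4.18 times lower, and Car4 fell by 2.15 on the log2(FPKM + 1) scale (SE 0.33, adjusted p = 0.0013).

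Car1, a cytosolic enzyme of colonocytes and red cells, was at 1135, 588, 529, 566 and 1145 FPKM in the Control mice in the same order. It was at 162, 129, 281, 65.2 and 270.2 FPKM in the AOM/DSS mice, with mouse 44 lowest. The highest Control values belonged to mice 17 and 50, the mice with squamous transcripts. Car1 fell by 2.21 on the log2 scale (SE 0.40, adjusted p = 0.00305), and the mean was 4.37 times lower. Without mice 17 and 50 the log2 change was -1.81 (adjusted p = 0.0234).

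Car2, a widely expressed cytosolic enzyme of very high turnover, was the least variable of the abundant members. Control mice had 682, 778, 626, 628 and 598 FPKM, and AOM/DSS mice had 136, 223, 288, 128 and 241 FPKM. The lowest Control mouse was thus above 2 times the highest AOM/DSS mouse. Car2 fell by 1.77 on the log2 scale (SE 0.22, adjusted p = 0.000333), and its mean was 3.26 times lower.

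Car3, a cytosolic enzyme of low activity that is abundant in adipocytes and skeletal muscle, was at 13.9, 4.21, 9.13, 1.58 and 3.99 FPKM in Control mice. In AOM/DSS mice it was at 0.14, 2.59, 1.03, 0.106 and 0.69 FPKM. Of the AOM/DSS mice, 4 lay below all Control mice, and mouse 30 overlapped them. Counting the coding transcript Car3-201 alone, mouse 30 was at 0.387 FPKM and the AOM/DSS mice at 0.106 to 0.813 FPKM, all below the 1.39 to 13.6 FPKM of Control mice. The log2 change of the gene was -1.87 (SE 0.47, adjusted p = 0.0163). Without Control mice 17 and 50 it was -1.57 and did not pass the test (adjusted p = 0.062), which left 3 members called, Car1, Car2 and Car4.

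The other 3 members gave small differences. Car13, a further cytosolic enzyme, was at 13.6 ± 3.64 FPKM in Control and 11.1 ± 2.13 in AOM/DSS mice, with a log2 change of -0.26 (95% confidence interval -0.67 to 0.15, adjusted p = 0.347). Car12 was at 2.79 ± 0.809 and 3.23 ± 0.771 FPKM, with a log2 change of 0.16 (interval -0.25 to 0.58, adjusted p = 0.577). Car8 was at 1.62, 1.46, 1.36, 1.1 and 1.35 FPKM in Control mice, against 1.68, 1.32, 2.27, 1.88 and 2.88 FPKM after AOM/DSS. Of the AOM/DSS mice, 4 were above all Control mice in Car8, but its log2 change of 0.32 (interval -0.0039 to 0.64) did not pass the test (adjusted p = 0.143). The interval of Car13 excludes a fall as large as that of its chromosome 3 neighbours Car1 and Car2. On the same stretch of the chromosome, the flanking genes E2f5, Lrrcc1 and 1810022K09Rik had log2 changes of -0.15, 0.42 and 0.07 (adjusted p = 0.767, 0.0792 and 0.816).

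**Figure D2:**
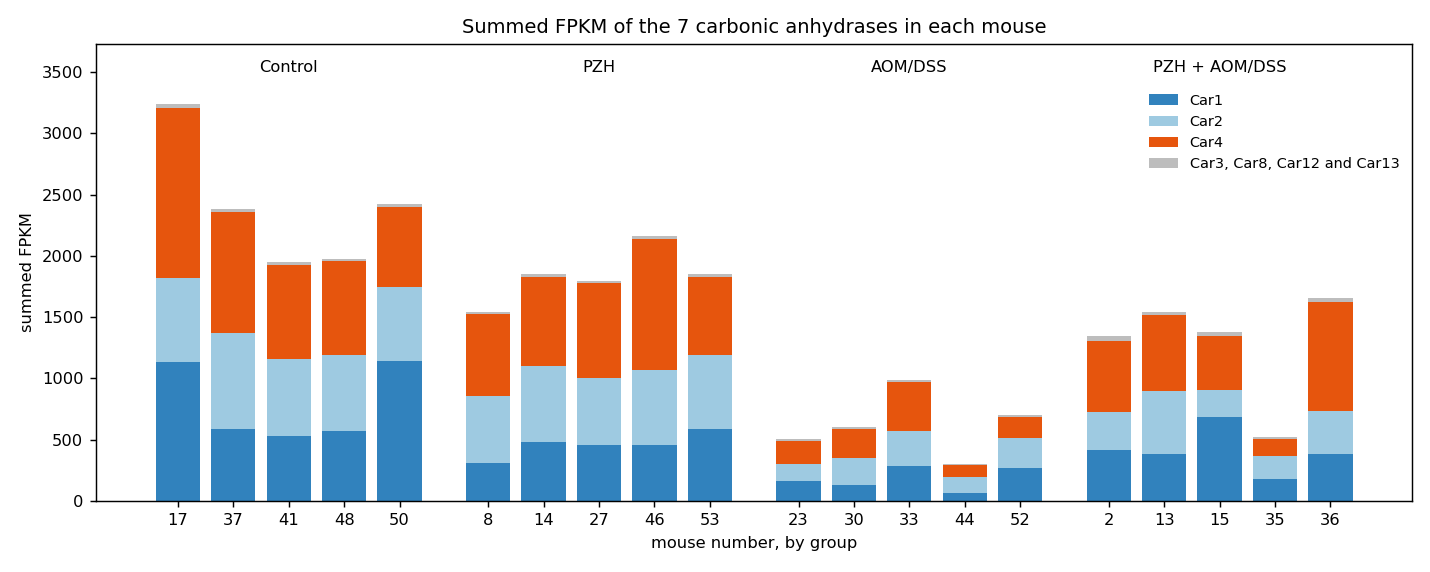
Summed FPKM of the 7 carbonic anhydrases in each mouse, stacked by member, with mouse numbers on the x axis and the 4 groups side by side. Control mice reach 1949 to 3243 FPKM, AOM/DSS mice reach 303 to 989 FPKM, and Car1, Car2 and Car4 make up nearly the whole sum in every mouse.

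Carbonic anhydrases work beside exchangers and channels of bicarbonate, chloride and acid, and a list of 27 such genes was examined with them. Of the 24 tested in AOM/DSS against Control mice, 9 were lower and 2 higher, with a median log2 change of -0.41. Slc26a3, the apical chloride-bicarbonate exchanger, fell from 400.1 ± 93.7 to 79.6 ± 32.5 FPKM (log2 change -2.39, adjusted p = 0.000231). Aqp8, a water channel of surface colonocytes, fell from 454 ± 102 to 103.5 ± 65.5 FPKM (log2 change -2.36, adjusted p = 0.00296). Slc4a4, a basolateral sodium-bicarbonate cotransporter, had a log2 change of -1.42 (adjusted p = 0.0149). Clca4b, a calcium-activated chloride channel regulator with a close copy, Clca4a, between which reads could be split, rose from 3.6 ± 3.11 to 383 ± 92.7 FPKM (log2 change 6.64, adjusted p = 4.26e-06). Of 12 surface colonocyte genes, which include Slc26a3 and Aqp8, 5 were lower and 0 higher. These included Guca2a, the guanylin precursor (log2 change -1.82, adjusted p = 0.00191), and the microvillar cadherin Cdhr2 (-0.74, adjusted p = 0.013).

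**Figure D3:**
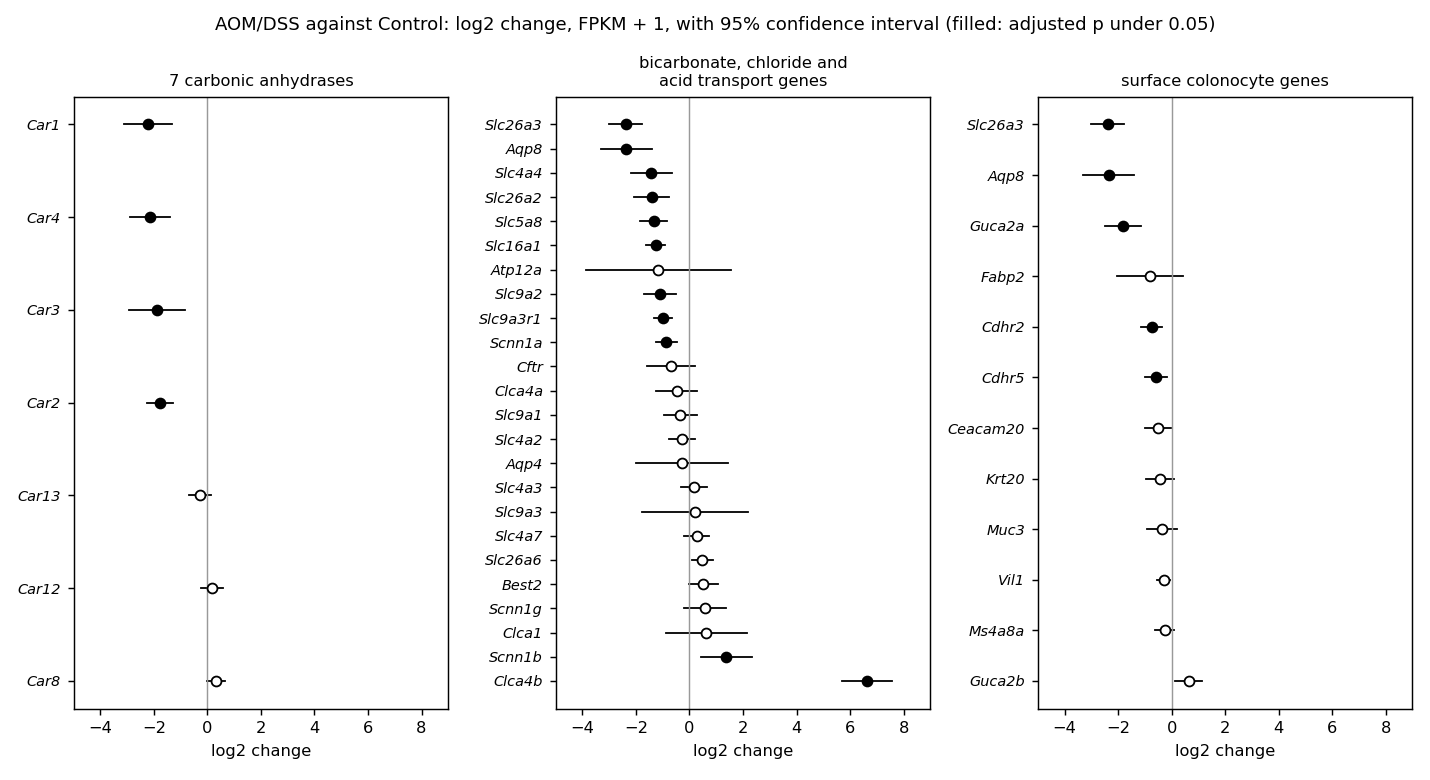
log2 change of FPKM + 1 between AOM/DSS and Control mice (points, with 95% confidence intervals, n = 5 per group) for the 7 carbonic anhydrases, the tested genes of bicarbonate, chloride and acid transport and the surface colonocyte genes. Filled points have an adjusted p under 0.05, with Car1, Car2 and Car4 at -2.21, -1.77 and -2.15, and Slc26a3 and Aqp8, which stand in both lists, at -2.39 and -2.36.

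Genes of other cells moved in the same comparison, and their part in the falls was not tested. Of 7 general epithelial genes tested, Krt19 and Cdx1 were lower (log2 changes -0.75 and -0.62, adjusted p = 0.00191 and 0.0131) and 0 higher, and Cdh1 had a log2 change of 0.05 (adjusted p = 0.796). All 8 smooth muscle genes were lower, among them Myh11, Acta2, Tagln and Synm at -1.49 to -1.23, and their summed level ranged from 2320 to 5347 FPKM in Control mice, against 1031 to 1805 FPKM after AOM/DSS. Of 9 leukocyte genes, 5 were higher and 0 lower, with S100a9 and S100a8 at 5.29 and 5.21, Itgam at 1.23 and Cd68 at 0.59. Red cells hold Car1 and Car2 too, and of 5 red cell genes tested, Alas2 was higher (0.62, adjusted p = 0.0222), with summed levels of 54.6 to 128 FPKM in Control mice, against 69.1 to 227 FPKM after AOM/DSS. Of the remaining lists, 2 of 6 endothelial genes were higher (Cdh5 and Vwf), 4 of 7 enteric neuron genes were lower and Ret was higher, 1 of 6 distal Hox genes tested was lower (Hoxb13), and 0 of 4 squamous genes tested were called. Of 12 hypoxia response genes, Pfkfb3 and Egln3 were higher.

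Adipocyte genes were split. Of 6 adipocyte genes tested, Cfd (adipsin), Pck1 and Fabp4 were lower in AOM/DSS mice (log2 changes -2.3, -1.41 and -0.63, adjusted p = 0.00914, 0.00801 and 0.0428) and 0 higher. Cidec and Lipe, a lipid droplet protein and a lipase, went the other way without passing the test (0.17 and 0.05, adjusted p = 0.618 and 0.773). The summed level of the 10 adipocyte genes listed was 68.99 to 133 FPKM in Control mice, against 23.7 to 49.97 FPKM after AOM/DSS. Most of this sum was Pck1 and Fabp4, with means of 49.2 and 18.2 FPKM in Control mice and 17.6 and 11.6 FPKM after AOM/DSS. The sum is therefore not read as a measure of fat. Adipoq, Plin1, Retn and Lep had medians of 0.31, 0.24, 0.29 and 0.02 FPKM over the 20 mice. Cfd itself reached 0.859 to 16.4 FPKM in Control mice and 0 to 1.26 FPKM after AOM/DSS. Adipoq, the adipocyte hormone, reached 1.71 FPKM among Control mice but at most 0.206 FPKM after AOM/DSS. Among 8940 genes with a mean of at least 5 FPKM, which leaves out Adipoq and Cidec, Cfd had the highest correlation with Car3 over the 20 mice (Pearson r of log2 values 0.96, and 0.95 for the deviations from group means). Of 3 skeletal muscle genes tested, Ckm was lower (-1.71, adjusted p = 0.00566). The skeletal muscle genes listed summed to 68.8 and 22.8 FPKM in Control mice 17 and 50, the mice with squamous transcripts. The other Control mice had 7.89 to 11.2 FPKM and the AOM/DSS mice 4.50 to 9.60 FPKM. The part of fat or muscle in the Car3 result was not tested.

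**Figure D4:**
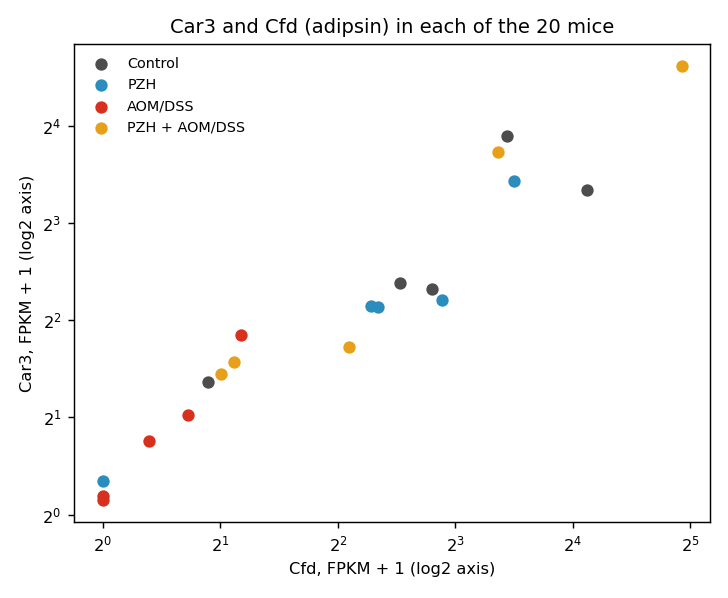
Car3 against Cfd (adipsin) in each of the 20 mice, both as FPKM + 1 on log2 axes, coloured by group. PZH + AOM/DSS mice 2 and 36, Control mice 17 and 41 and PZH mouse 46 are high in both genes. The AOM/DSS mice lie at the lower left, as do PZH mouse 53, Control mouse 48 and PZH + AOM/DSS mice 13 and 15.

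The comparison of PZH with Control mice asks what PZH did without AOM/DSS. None of the 7 members passed the test by limma, where 1 of 15506 genes (0.00645%) was called. Car1 was at 311, 478, 457, 454 and 583 FPKM in PZH mice 8, 14, 27, 46 and 53, and 4 of them lay below all Control mice. Its log2 change was -0.73 (SE 0.26, unadjusted p = 0.0175, adjusted p = 0.533), the only member with an unadjusted p under 0.05. Of all genes tested, 4.5% had such a p with a lower level. Without Control mice 17 and 50, which had the highest Car1, the change was -0.32 (unadjusted p = 0.113). Car2 was at 544, 619.9, 544, 618 and 605 FPKM in the PZH mice, and Car4 at 665, 731, 779, 1065 and 641 FPKM, and both genes overlapped the Control mice. For Car2 the log2 change was -0.17 (interval -0.39 to 0.05) and for Car4 -0.21 (interval -0.68 to 0.26), so that falls as large as in AOM/DSS mice lie outside both intervals. The intervals were -0.20 to 0.37 for Car8, -0.57 to 0.43 for Car12 and -0.44 to 0.26 for Car13. That of Car3 was -1.88 to 0.67. For Car3, Car8, Car12 and Car13 these intervals include the log2 change of the same gene in AOM/DSS against Control mice.

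Other cells' genes also moved between PZH and Control mice, none past the test. All 4 red cell genes tested were lower in mean, 2 with an unadjusted p under 0.05 (median log2 change -1.01), and the red cell genes summed to 27.8 to 72.4 FPKM in PZH mice. All 8 smooth muscle genes were lower in mean, 5 with such a p (median -0.71), and summed to 1089 to 2505 FPKM. The part of these in the Car1 difference was not tested.

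The comparison of PZH + AOM/DSS with AOM/DSS mice asks whether PZH altered these genes in the model. The means of all 7 members were higher in PZH + AOM/DSS mice, but none passed the test by limma, and 1 of 15888 genes (0.00629%) did. An unadjusted p under 0.05 with a higher level was found for 4 members, Car1, Car3, Car4 and Car13, and for 3.51% of all genes tested. By exact two-sided permutation tests, p was 0.0476 for Car1, 0.0317 for Car3, 0.0794 for Car4 and 0.0556 for Car13. The summed level of the 7 members was 1290 ± 445 FPKM, against 620.5 ± 253 FPKM in AOM/DSS mice. The comparison uses the same 5 AOM/DSS mice as that with Control, so that a low level in these mice enters both.

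Genes of other lists differed between the same groups, none past the test. Of 25 transport genes tested, 18 were higher in mean, 5 of them with an unadjusted p under 0.05, and Slc26a3 and Aqp8 had log2 differences of 1.25 and 1.07 (adjusted p = 0.356 and 0.425). Of 12 surface colonocyte genes, 10 were higher in mean, 2 with such a p (median 0.25). They summed to 1298 to 2889 FPKM in PZH + AOM/DSS mice, against 1025 to 1898 FPKM in AOM/DSS mice. All 6 adipocyte genes tested were higher in mean, 1 with such a p (median 0.31). All 5 red cell genes tested were lower in mean, 4 with such a p (median -1.37, beside -0.04 for all genes tested). The red cell genes summed to 22.04 to 136 FPKM in PZH + AOM/DSS mice. Of 9 leukocyte genes 7 were lower in mean, 3 with such a p, and they summed to 316 to 773 FPKM, against 411 to 905 FPKM in AOM/DSS mice. The share of all genes lower with such a p is not given here, so the counts of lower red cell and leukocyte genes have no background beside them. The part of these lists in the members' differences was not tested.

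Car1 was at 418, 384, 684, 177 and 380.4 FPKM in PZH + AOM/DSS mice 2, 13, 15, 35 and 36, and 4 of them were above all AOM/DSS mice. The mean was 2.25 times that of AOM/DSS mice, with a log2 difference of 1.23 (SE 0.43, unadjusted p = 0.0172, adjusted p = 0.36). Car4 was at 584, 620.1, 435, 137 and 885 FPKM, again with 4 mice above all AOM/DSS mice, and mouse 35 within their range. Its mean was 2.43 times that of AOM/DSS mice, with a log2 difference of 1.19 (SE 0.49, unadjusted p = 0.0351, adjusted p = 0.398).

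Mouse 35 had the lowest Car1, Car2, Car4, Car12 and Car13 of its group. Without it the log2 difference was 1.62 for Car4, which then passed the test (adjusted p = 0.0347), and 1.5 for Car1 (adjusted p = 0.0661), while the genes called rose from 1 to 808. Leaving out the lowest mouse of a group raises that group's mean by construction, so the call of Car4 is not read as a result. Mouse 35 also had the highest summed leukocyte genes (773 FPKM, against 316 to 463 FPKM in the other mice of its group) and squamous genes (60.0 against 2.52 to 9.22 FPKM). Its surface colonocyte genes summed to 1298 against 1981 to 2889 FPKM. What part these have in its low carbonic anhydrases was not tested.

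Car2 was at 303, 512, 224, 192 and 356 FPKM in PZH + AOM/DSS mice, 3 of them above all AOM/DSS mice, and its log2 difference was 0.63 (interval -0.04 to 1.3, unadjusted p = 0.0644, adjusted p = 0.451). Car3 was at 23.6, 1.72, 1.98, 2.3 and 12.2 FPKM. Mice 2 and 36 alone carried most of its mean, and the same mice had the highest Cfd of their group (29.4 and 9.27 FPKM, against 1.00 to 3.27 FPKM). Its log2 difference was 1.82 (SE 0.63, unadjusted p = 0.0155, adjusted p = 0.358).

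Car13 was at 14.1, 17.2, 20.8, 11.1 and 13.9 FPKM in PZH + AOM/DSS mice, against 13, 9.96, 12.1, 7.87 and 12.5 FPKM in mice given AOM/DSS alone. Its log2 difference was 0.44 (unadjusted p = 0.0362, adjusted p = 0.399), with 4 mice above all AOM/DSS mice. Car12 was at 4.67, 5.08, 11.3, 2.51 and 4.83 FPKM, with mouse 15 highest and 4 mice above all AOM/DSS mice, and its log2 difference was 0.56 (interval -0.09 to 1.20, adjusted p = 0.476). Car8 was at 2.02 ± 0.523 FPKM and hardly differed in mean from AOM/DSS mice (log2 difference 0.01, interval -0.37 to 0.39).

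**Figure D5:**
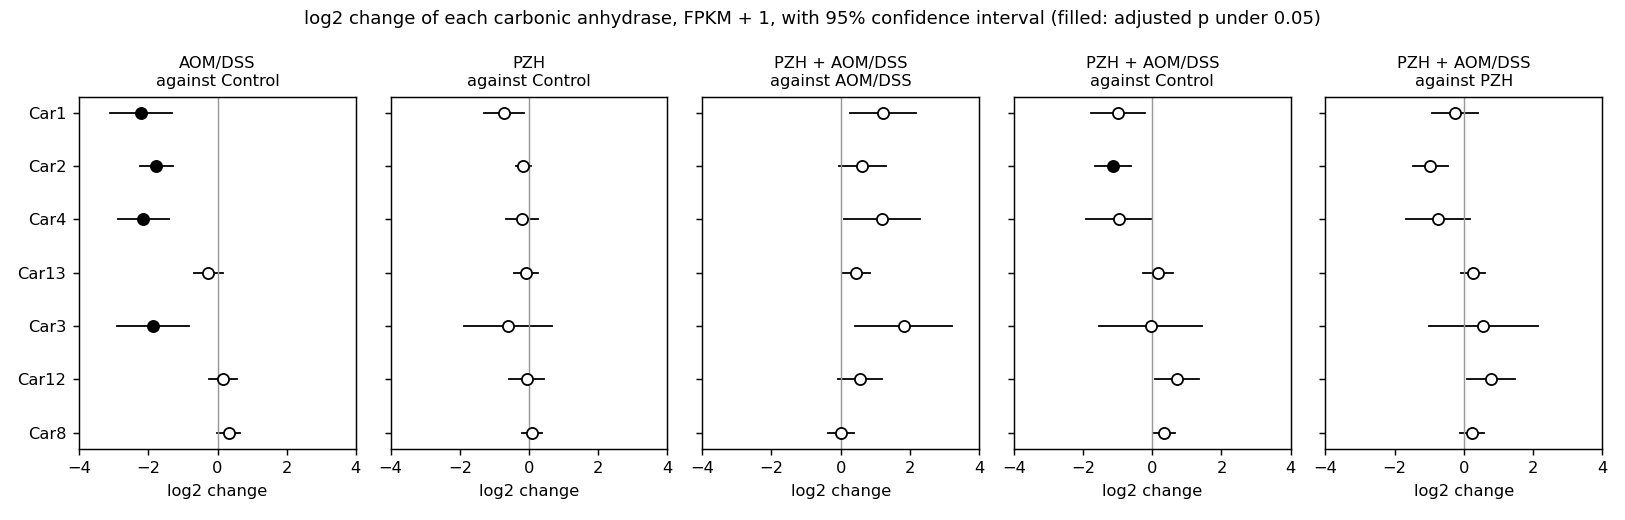
log2 change of FPKM + 1 of the 7 carbonic anhydrases in the 5 comparisons (points, with 95% confidence intervals, n = 5 mice per group). Filled points have an adjusted p under 0.05, which is the case for Car1, Car2, Car3 and Car4 in AOM/DSS against Control mice and for Car2 in PZH + AOM/DSS against Control mice.

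PZH + AOM/DSS mice were also set against Control mice, which shows how far the levels lay from those of Control colon. Car2 passed the test, with all 5 PZH + AOM/DSS mice below all Control mice. By limma, 0.871% of 15616 genes were lower, and groups with no overlap and a lower level made up 2.59%. Car2 fell by 1.14 on the log2 scale (SE 0.24, adjusted p = 0.0356), and its mean was 47.9% of that of Control mice. The call was near the threshold, as leaving out any mouse other than PZH + AOM/DSS mouse 13 raised its adjusted p to between 0.0502 and 0.0969, and leaving out both Control mice 17 and 50 raised it to 0.136.

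Car1 and Car4 lay between the AOM/DSS and Control groups. Their log2 differences from Control were -0.99 (unadjusted p = 0.0173, adjusted p = 0.148) and -0.96 (unadjusted p = 0.0499, adjusted p = 0.24), and in both genes 4 of 5 PZH + AOM/DSS mice were below all Control mice. Car12 was above all Control mice in 4 of 5 mice and Car8 in 3 of 5. Car12 was 2.03 times the Control mean (log2 difference 0.72, unadjusted p = 0.0318, adjusted p = 0.196) and Car8 1.46 times (log2 difference 0.33, unadjusted p = 0.0424, adjusted p = 0.224), and neither passed the test. Car3 (-0.04, interval -1.54 to 1.45) and Car13 (0.17, interval -0.26 to 0.61) did not pass it either.

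Among PZH mice, with and without AOM/DSS, no member passed the test by limma, where 2.42% of 15636 genes did. Before adjustment, the limma p was 0.00153 for Car2, which was lower with AOM/DSS, and 0.0302 for Car12, which was higher. Car2 came nearest, with all 5 PZH + AOM/DSS mice below all 5 PZH mice (192 to 512 against 544 to 619.9 FPKM), as were 2.37% of all genes tested. Its log2 difference was -0.97 (SE 0.23, adjusted p = 0.0555), and it passed the test without PZH + AOM/DSS mouse 13 (0.0194). Mouse 13 had the highest Car2 of its group, so leaving it out widens the difference by construction, and that call is not read as a result. For Car1 the difference was -0.26 (interval -0.93 to 0.42) and for Car4 -0.75 (interval -1.68 to 0.18). The differences of Car3, Car8, Car12 and Car13 were 0.56, 0.24, 0.79 and 0.26, with adjusted p from 0.188 to 0.694.

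Whether the effect of AOM/DSS differed between mice with and without PZH was tested as the interaction over all 20 mice. None of the 7 members passed the test by limma, and 2 of 16936 genes (0.0118%) did. For Car1 the fall with AOM/DSS was smaller by 1.96 log2 units under PZH (SE 0.54, unadjusted p = 0.00169, adjusted p = 0.35), a value that includes the difference in Car1 between PZH and Control mice. Car3 (2.43), Car4 (1.4), Car2 (0.80) and Car13 (0.53) also had an unadjusted p under 0.05, with adjusted p from 0.389 to 0.477. A positive interaction with an unadjusted p under 0.05 was thus found for 5 of 7 members and for 3.41% of all genes tested. Of any size, it was positive in 6 of 7 members, 11 of 12 surface colonocyte, 9 of 9 adipocyte and 8 of 8 smooth muscle genes tested. The medians of these other lists were 0.35, 0.62 and 0.73, beside -0.05 for all genes. It was positive in 12 of 25 transport, 4 of 9 leukocyte and 0 of 5 red cell genes. The part of these lists in the members' interactions was not tested. Without mouse 35 the interactions of Car1 and Car4 were 2.23 and 1.83 and passed the test (adjusted p = 0.019 and 0.0251), and 476 genes were called. Mouse 35 was the lowest of its group in both genes, so leaving it out raises both values by construction, and these calls are not read as results. Without Control mice 17 and 50 that of Car1 was 1.55 (unadjusted p = 0.0122).

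The members varied together in part. After subtraction of group means, the log2 values of Car1 and Car13 had a Pearson r of 0.83 over the 20 mice, those of Car2 and Car4 of 0.73 and those of Car1 and Car4 of 0.58. For Car2 and Car8 the value was -0.06. Among 8940 other genes with a mean of at least 5 FPKM, the 3 with the highest r over the 20 mice were Slc26a3, Maoa and Agpat4 for Car4 (r 0.96, 0.96 and 0.95) and Selenbp1, Aqp8 and Cbr1 for Car2 (r 0.96, 0.96 and 0.96). For Car1 they were Slc25a10, Tstd3 and Slc26a3 (r 0.89, 0.88 and 0.88), and for Car13 Krt20, Clca4a and Cab39 (r 0.79, 0.78 and 0.76). Slc26a3 thus stood among the genes most like Car1 and Car4, and its r with Car4 was 0.90 after subtraction of group means. For Car12 they were Il13ra1, Psap and Ceacam2 (r 0.78, 0.76 and 0.75), for Car8 Nsmce1, Seh1l and Necap1 (r 0.80, 0.78 and 0.76) and for Car3, after Cfd, Fam241a (r 0.70). The mice share group and tissue makeup, so these values are descriptions.

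Of 11 further genes of the carbonic anhydrase family, 6 were high enough to be tested in AOM/DSS against Control mice. Ptprz1, a receptor tyrosine phosphatase with an extracellular carbonic anhydrase domain that lacks activity, was the only one called higher. Control mice had 1.58, 1.13, 2.23, 1.98 and 2.57 FPKM, against 9.58, 9.56, 7.24, 18.8 and 10.6 FPKM after AOM/DSS, without overlap (log2 change 2.03, SE 0.23, adjusted p = 0.000189). Mice given PZH + AOM/DSS had 0.705, 1.45, 4.6, 11.7 and 2.13 FPKM, with mouse 35 highest, and the log2 difference from AOM/DSS mice was -1.57 (unadjusted p = 0.0083, adjusted p = 0.356).

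Car7, a cytosolic enzyme, was lower in AOM/DSS mice (0.602 ± 0.232 against 1.27 ± 0.348 FPKM, log2 change -0.50, adjusted p = 0.0317). It lay at 0.364 to 0.839 FPKM in AOM/DSS and 0.685 to 1.62 FPKM in Control mice, near the floor and with overlap. The 5 Control mice alone met the filter on low values, so the call of Car7 is not read as a result of its own. Car9, the hypoxia-inducible transmembrane enzyme, had group means of 33 to 37.5 FPKM and did not pass the test in any comparison. Mitochondrial Car5b had a log2 change of 0.45, the acatalytic Car11 of -0.49 and membrane-anchored Car15 of -0.06 in AOM/DSS against Control mice (adjusted p = 0.0926, 0.0798 and 0.838). Car15 was lower in PZH + AOM/DSS than in PZH mice (0.239 ± 0.151 against 0.86 ± 0.131 FPKM, log2 difference -0.59, adjusted p = 0.0283). It lay at 0 to 0.365 FPKM in the former and 0.647 to 0.984 FPKM in the latter, near the floor in both. It passed the filter on low values only through the PZH mice, so this call is not read as a result of its own. Car14, a transmembrane enzyme, was under the filter on low values in the AOM/DSS comparison. It was at 1.02, 0.537, 0.579, 0.314 and 1.84 FPKM in Control mice, against 0.0943, 0, 0.198, 0.0608 and 0.106 FPKM after AOM/DSS, without overlap. Its exact two-sided permutation p was 0.00794, the smallest that 5 against 5 mice allow, and is not adjusted for the number of genes. Of the genes that were tested, 5.43% were lower in AOM/DSS mice without overlap. Means of mitochondrial Car5a, secreted Car6 and the acatalytic Car10 were at most 0.062, 0.0302 and 0.0121 FPKM in any group, and the means of Ptprg, the other phosphatase of the family, lay between 0.218 and 0.388 FPKM.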

How the data were processed

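RNA of colon tissue from 20 mice (4 groups of 5, 1 library each) was analysed. As the authors describe, reads were checked with FastQC v0.11.5, filtered with NGSQC v2.3.3, aligned to the mouse genome (mm10) with HISAT2 v2.1.0 and quantified with StringTie v1.3.3b. The deposited values were FPKM per transcript, computed by the authors, for 118434 transcripts without counts. Of these, 96032 were assigned to 32991 genes with GENCODE M21 (GRCm38) and summed per gene. The 22252 assembled transcripts (12.1 to 14.8% of a mouse's FPKM) and 150 Ensembl transcripts missing from that release were left out. FPKM times transcript length gave the size of 1 fragment and so the depth. On whole multiples of it 44.0 to 49.5% of low values fell, so the absolute depth is approximate, and no counting intervals are given.

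Genes reaching 0.5 FPKM in 5 or more of the mice compared were tested as log2(FPKM + 1) with limma 3.58.1 under R 4.3.3 (variance trend, no covariates). Each comparison used the 10 mice of its groups, the interaction all 20, and p-values were adjusted over all genes tested at a threshold of 0.05. Values per mouse of the family were also compared with exact two-sided permutation tests. Simulated data with known fold changes were used to test the fit. Neither labels nor methods name sequencing batches. Named genes were all members, all further family genes, of each other list up to 4 called genes of largest change in AOM/DSS against Control, and the 3 genes most like each member, of which 1 is not reported here. Chromosome 3 neighbours and genes used to check the tissue were named as well. Members and lists were chosen with earlier results of these data known. Coding sequences were read from GENCODE M21 and aligned with Biopython 1.88. Alternatives were median-of-ratios scaling, no filter, a mean of at least 1 FPKM, a pseudocount of 0.1, the most abundant transcript, sample quality weights, all 20 mice in 1 model and leaving out each mouse. Leaving out Control mice 17 and 50 together was added after the data were seen.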

Additional observations from a re-analysis of the deposited data

Results flagged for a closer look

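A value was looked at again where 1 mouse of a group of 5 stood far from the other 4 for the spread of that group. This was tested in 56 sets of values (14 genes of the family in 4 groups), of which 5 met it and chance gives about 2.8, or 1 in 20. Among the members, Car13 was at 15.1 FPKM in PZH mouse 46, against 11.5 to 12.3 FPKM in the other PZH mice. PZH mouse 46 also had the lowest Ptprz1 of its group at 0.478 FPKM, against 1.38 to 1.73 FPKM. Car11 was at 0.337 FPKM in Control mouse 17, one of the mice with squamous transcripts, against 1.26 to 1.53 FPKM in the other Control mice. Car15 was at 1.54 FPKM in Control mouse 41, against 0.405 to 0.570 FPKM. Car14 was at 0.618 FPKM in PZH + AOM/DSS mouse 13, against 0.0530 to 0.144 FPKM.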

How the results depend on the processing

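In AOM/DSS against Control, 4 members were called under all 7 other settings and with each mouse left out (4 to 4), with 2516 to 3562 genes called when a mouse was left out. With Control mice 17 and 50 out, 3 members and 2739 genes were called. Median-of-ratios scaling changed the split of calls from 2596 higher and 1143 lower to 1936 and 1587. In PZH against Control, 0 members were called under every setting. The genes called were 2 with the most abundant transcript only, 0 with all 20 mice in 1 model and 1 to 2 with a mouse left out. The log2 change of Car12 turned to 0.20 with the most abundant transcript only and ranged from -0.21 to 0.036 with a mouse left out. That of Car13 turned to 0.13 without Control mice 17 and 50 and ranged from -0.17 to 0.037 with a mouse left out.

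In PZH + AOM/DSS against AOM/DSS, the genes called were 0 without a filter, 3 with the most abundant transcript only, 2 with quality weights, 76 with all 20 mice and 1 to 808 with a mouse left out, and the members called 0 to 1. The most was reached without mouse 35. The log2 change of Car8 turned to -0.10 with quality weights and ranged from -0.076 to 0.11 with a mouse left out. In PZH + AOM/DSS against Control, 98 genes and 0 members were called without a filter, 177 and 0 with the most abundant transcript only, 29 and 0 without Control mice 17 and 50, 1533 genes with all 20 mice, and 78 to 495 genes and 0 to 1 members with a mouse left out. Scaling changed the split from 242 higher and 136 lower to 217 and 216. Car3 turned to 0.46 with quality weights and 0.25 without Control mice 17 and 50, and ranged from -0.55 to 0.26 with a mouse left out.

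In PZH + AOM/DSS against PZH, 90 genes were called without a filter, 155 with the most abundant transcript only, 1043 genes and 1 member with all 20 mice, 1 member with quality weights, and 54 to 423 genes and 0 to 1 members with a mouse left out. Car1 ranged from -0.47 to 0.014 with a mouse left out. For the interaction, the genes called were 0 without a filter, with a pseudocount of 0.1, with the most abundant transcript only and without Control mice 17 and 50. They were 1 with a mean of at least 1 FPKM, 130 with quality weights and 0 to 476 with a mouse left out, with 0 to 2 members. The interaction of Car8 ranged from -0.16 to 0.021 with a mouse left out. The causes were not tested. No paired analysis was possible because the mouse numbers are not shared between groups.

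Of the log2 changes recomputed for the members, 766 kept their direction and their side of the threshold, 13 no longer passed it, 6 newly passed it and 20 changed sign, none of which was called. With 5 mice per group, the values of Car3 spread most, and its log2 difference of 1.82 under PZH in the model did not pass the test. Car8, Car12 and low Car3 values rest on the fewest fragments. Fragments assigned to assembled transcripts are missing from all sums.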
